A study of Mus musculus with 25 samples.

Results

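The genes described here encode receptors for dopamine (Drd1), serotonin (Htr1a, Htr2a, Htr2c, Htr4 and Htr5a), noradrenaline (Adra1d and Adra2c) and acetylcholine (Chrm1 and Chrm3) in mouse hippocampus. They were taken by gene symbol, 10 of the 24421 symbols in the deposited count files, and all 10 passed the filter on low counts. Bulk RNA sequencing was done on hippocampi of Scn1a+/- mice, which carry 1 disrupted copy of the gene for the sodium channel Nav1.1 and model Dravet syndrome, and of wild-type mice. Both came on 2 backgrounds, the inbred strain 129S6/SvEvTac (129S6 below) and [129S6/SvEvTac x C57BL/6]F1 hybrids (F1 below), at postnatal days 14 (P14) and 24 (P24). The 25 libraries form 9 groups. In P24 F1 there were 3 libraries of Scn1a+/- mice with seizures, 2 of Scn1a+/- mice without seizures and 3 of wild-type mice. In P24 129S6 there were 3 libraries labelled Scn1a+/- and 3 labelled wild type. In P14 F1 there were 3 Scn1a+/- and 3 wild-type libraries, and in P14 129S6 3 Scn1a+/- and 2 wild-type libraries. Each library pooled hippocampi, from 3 to 4 mice in the seizure group and from 12 to 16 mice in all other groups, so seizures and pool size cannot be told apart. All 22 libraries outside the seizure group are labelled as without seizures, and the labels name no transgene, Cre driver or drug in any group.

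Library totals ran from 7436442 to 25520050 counts. Scn1a itself had 68.8 to 89.0 CPM (counts scaled to library size) in the seizure libraries, 115 and 92.9 CPM in the seizure-free P24 F1 Scn1a+/- libraries and 124 to 129.7 CPM in P24 F1 wild type. At P24 in 129S6 the order was the reverse of what the labels say, with 135 to 144 CPM in libraries labelled Scn1a+/- and 109 to 111 CPM in libraries labelled wild type. The file names of these 6 libraries also give the opposite genotype, so a genotype direction in P24 129S6 refers to labels only. All 7 CA1 markers and all 11 dentate granule cell markers listed for the check of tissue were counted in every library, with at least 12 counts each. The 3 seizure libraries differed more among themselves than the replicates of the other groups did. Nothing in the labels says that the pools of a group came from separate litters or days, so the p-values reflect only how far these pools differ, which may be technical.

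These receptors pass their signals through G proteins. Drd1 and Htr4 couple to Gs and raise cyclic AMP, Htr1a, Htr5a and Adra2c couple to Gi or Go and lower it, and Htr2a, Htr2c, Adra1d, Chrm1 and Chrm3 couple to Gq and act through phospholipase C. In the hippocampus the transmitters arrive on long axons from brainstem, midbrain and septal nuclei, while most of the receptor mRNA is made by local neurons.

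**Figure D1:**
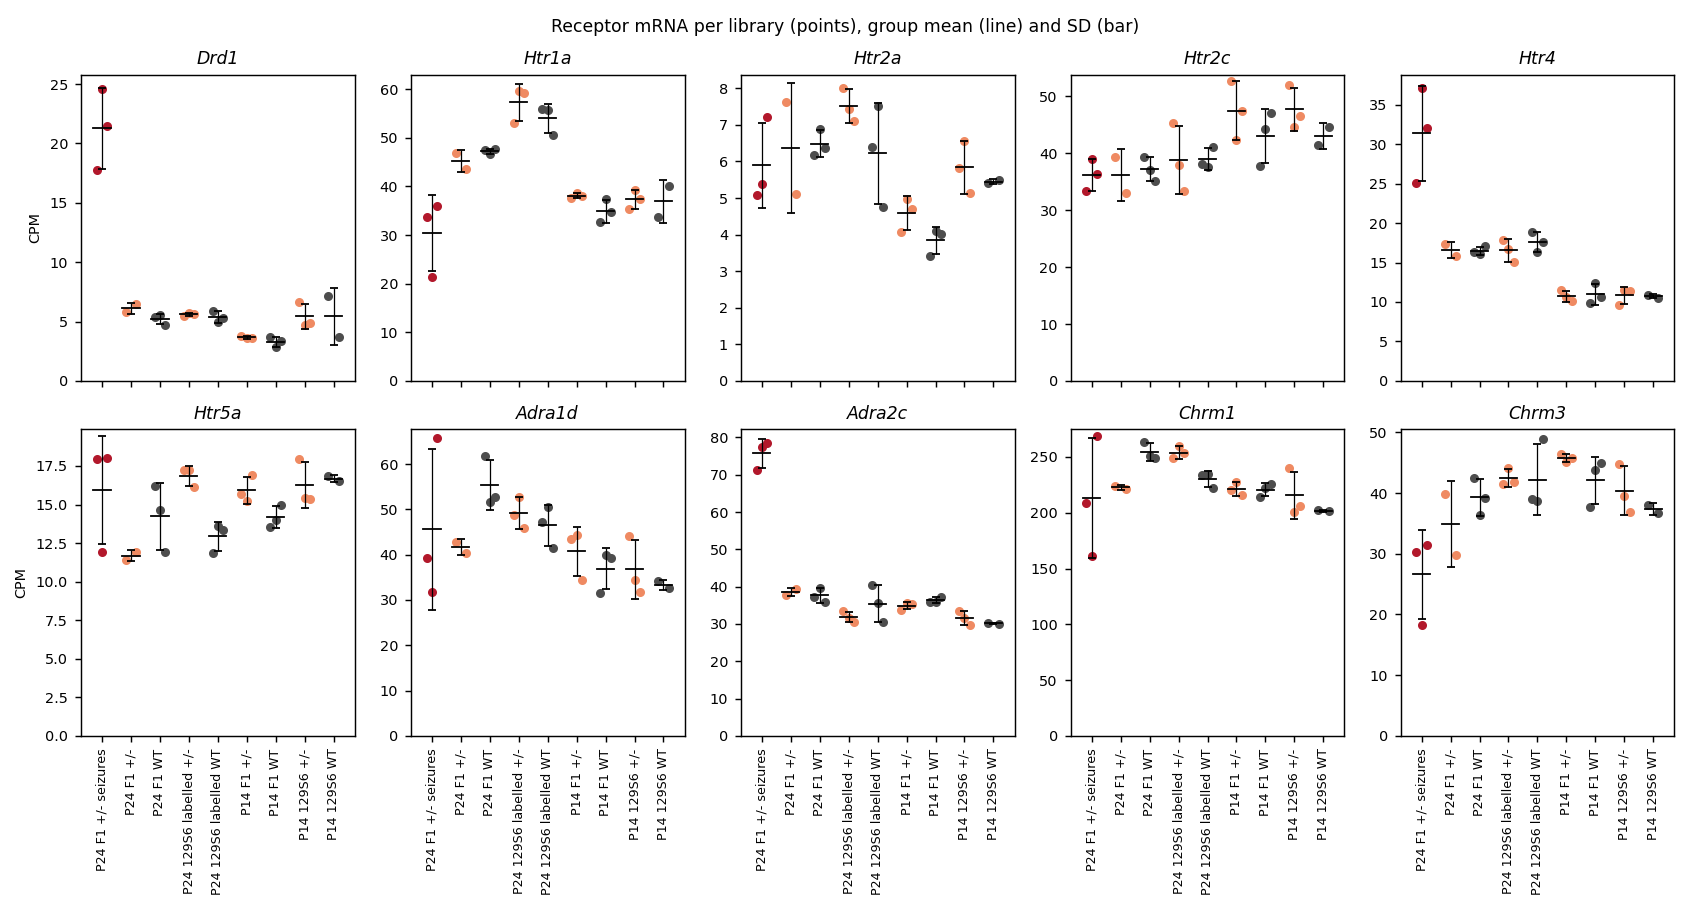
Receptor mRNA in CPM (vertical axes, linear, starting at 0) in each of the 25 libraries (points), with the mean and SD of each group (lines and bars). The seizure libraries, at the left of each panel, lie apart from the other 22 libraries for Drd1 (17.7 to 24.6 CPM), Htr4 (25.0 to 37.1 CPM) and Adra2c (71.4 to 78.5 CPM).

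To rank the receptors by level, CPM was divided by exonic length in kilobases. In the seizure libraries Chrm1 led at 26.7 ± 6.74 CPM per kb (SD, n = 3) and was followed by Adra2c at 22.0 ± 1.12 CPM per kb, and the ranges of these overlapped. In P24 F1 wild type Chrm1 also led, at 31.8 ± 1.01 CPM per kb (n = 3), without overlap with Adra1d, next at 13.3 ± 1.32 CPM per kb. Adra2c (10.9 ± 0.554 CPM per kb) and Htr1a (10.5 ± 0.119) came next in wild type and overlapped, ahead of Chrm3 (6.29 ± 0.486) and Htr2c (3.98 ± 0.228). Htr4 (1.80 ± 0.0555) overlapped with Htr5a (1.62 ± 0.246), and Drd1 (1.15 ± 0.0970) with Htr2a (0.981 ± 0.0560), so these last 4 genes form 2 pairs with no order inside them. In the seizure libraries Drd1 stood at 4.67 ± 0.754 CPM per kb, at rank 5 by mean, with its range overlapping those of Htr1a above it and Chrm3 below it. Htr2a was lowest in both groups, at 0.891 ± 0.174 CPM per kb in the seizure libraries.

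**Figure D2:**
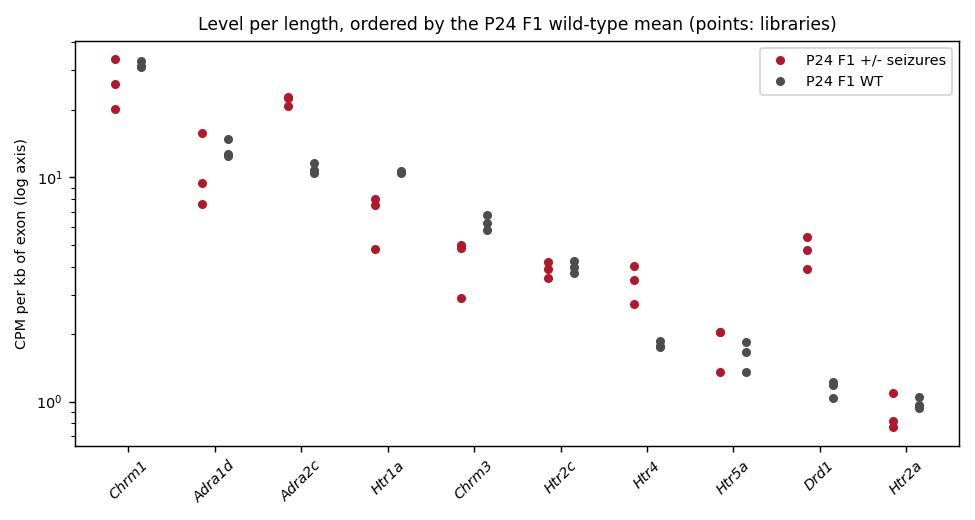
Level per kilobase of exon (vertical axis, logarithmic, CPM per kb) of the 10 receptors in the 3 seizure libraries (left points of each pair) and the 3 P24 F1 wild-type libraries (right points), in order of the wild-type mean. Drd1 stands at 4.67 CPM per kb in the seizure mean and 1.15 in the wild-type mean, while Htr2c stands at 3.88 and 3.98.

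The stretch of 250 bases before the transcription start is shown for the receptors whose mRNA differed between seizure and wild-type libraries, as far as RefSeq's promoter table for GRCm38.p6 (the assembly of mm10) gives one that can be printed. Capitals mark a motif match. Drd1 (minus strand, chr13:54051183-54055658) has 2 start sites in the table, and Adra2c (chr5:35278566-35281763) and Htr1a (chr13:105443693-105448133), both on the plus strand, and Chrm3 (minus strand, chr13:9875486-10361062) have 1 each.
Drd1 start site 1, chr13:54055659-54055908: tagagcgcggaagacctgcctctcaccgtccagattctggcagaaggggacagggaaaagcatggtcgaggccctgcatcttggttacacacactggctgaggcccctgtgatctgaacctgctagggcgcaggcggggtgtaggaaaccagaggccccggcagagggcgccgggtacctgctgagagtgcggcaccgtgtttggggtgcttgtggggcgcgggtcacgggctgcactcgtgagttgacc
Drd1 start site 2, chr13:54054781-54055030: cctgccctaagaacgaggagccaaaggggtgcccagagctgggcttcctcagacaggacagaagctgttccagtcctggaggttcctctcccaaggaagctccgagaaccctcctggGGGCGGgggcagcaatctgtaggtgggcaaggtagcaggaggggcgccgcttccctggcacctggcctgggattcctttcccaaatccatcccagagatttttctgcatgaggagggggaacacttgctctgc
Adra2c, chr5:35278316-35278565: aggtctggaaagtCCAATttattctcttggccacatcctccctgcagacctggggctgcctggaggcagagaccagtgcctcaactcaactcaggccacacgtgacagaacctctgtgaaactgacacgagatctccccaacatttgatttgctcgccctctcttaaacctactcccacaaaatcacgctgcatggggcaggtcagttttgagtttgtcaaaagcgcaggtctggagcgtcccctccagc
Htr1a, chr13:105443443-105443692: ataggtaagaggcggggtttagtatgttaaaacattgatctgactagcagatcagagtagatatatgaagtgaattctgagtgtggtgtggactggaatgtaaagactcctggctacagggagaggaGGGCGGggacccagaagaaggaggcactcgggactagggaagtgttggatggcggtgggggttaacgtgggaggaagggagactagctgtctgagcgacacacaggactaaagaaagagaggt
Chrm3, chr13:10360804-10361053: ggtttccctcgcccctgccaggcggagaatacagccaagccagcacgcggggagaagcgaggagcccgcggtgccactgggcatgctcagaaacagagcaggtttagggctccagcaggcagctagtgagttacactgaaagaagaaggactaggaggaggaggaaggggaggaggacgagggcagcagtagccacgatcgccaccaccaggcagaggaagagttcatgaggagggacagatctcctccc

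Both strands were searched for 6 short motifs, the full cyclic AMP response element TGACGTCA, its half-site TGACG (which the full element contains), the AP-1 site TGANTCA, the GC box GGGCGG, the CCAAT box CCAAT and the TATA box TATAAA. The Adra2c window held a CCAAT box at -237 from the start, and CCAAT boxes were in 33.8% of all 32851 promoter windows of the table. The Htr1a window held a GC box at -123 and the window of the second Drd1 start site one at -133, against 32.7% of all windows. None of these 5 windows matched the full element, its half-site, the AP-1 site or the TATA box, which were in 1.55%, 17.8%, 6.75% and 12.4% of all windows. Among the receptors whose mRNA did not pass the test, Htr2a had a GC box at -85, Htr2c an AP-1 site at -198 and a CCAAT box at -80, and Htr5a no match. A match is a run of letters only. Of the others, Htr2a lies at chr14:74640874-74706859, Htr2c at chrX:146962464-147197277, Htr5a at chr5:27841716-27855086 and Chrm1 at chr19:8664005-8683606, all on the plus strand, and Adra1d at chr2:131545357-131562497 on the minus strand. Exons of Htr2c, Adra1d and Chrm1 overlap with exons of Gm61665, Gm14285 and Gm54900 on the opposite strand, and the library kit does not mark strand, so reads of each such pair cannot be told apart.

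The seizure libraries were first set against P24 F1 wild type. Drd1, Htr4 and Adra2c were higher in the seizure libraries, and Htr1a and Chrm3 were lower. These 5 of 10 receptors (3 higher, 2 lower) compare with 22.5% of all 15912 genes tested, 12.4% higher and 10.1% lower (edgeR, adjusted p under 0.05). The median log2 fold change was -0.09 over the 10 receptors and 0.01 over all genes tested. By coupling, both Gs receptors among these 10 were higher, and 1 of the 5 Gq receptors was lower. The Gi or Go receptors split into 1 higher, 1 lower and 1 that did not pass. The 10 were chosen with earlier results of these data known, and the Gs-coupled Drd5 and Htr6, outside the 10, did not pass. In pooled tissue, fewer cells of a type and less RNA per cell cannot be told apart, here or in any comparison that follows.

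Drd1 encodes the D1 dopamine receptor, which in the hippocampus is found on dentate granule cells and on some interneurons. It had 17.7, 24.6 and 21.5 CPM in the seizure libraries, 5.80 and 6.44 CPM in the seizure-free Scn1a+/- libraries and 5.39, 5.55 and 4.72 CPM in wild type. Every seizure library lay above every other library of the series, whose highest value was 7.16 CPM. The mean was 21.3 ± 3.43 CPM (SD, n = 3) in the seizure group and 5.22 ± 0.442 CPM (n = 3) in wild type, a 4.06-fold difference (log2 2.02 ± 0.16 SE, edgeR adjusted p = 1.58e-11). Against the seizure-free Scn1a+/- libraries, at 6.12 ± 0.451 CPM (n = 2), it was 3.45-fold higher (log2 1.79 ± 0.19, edgeR adjusted p = 1.82e-08). Drd1 was counted from 395 to 484 reads in each seizure library and from 27 to 132 in each of the other 22.

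Among the serotonin receptors, Htr4, a Gs-coupled receptor of granule and pyramidal cells, had 25.0, 37.1 and 32.0 CPM in the seizure libraries, 17.3 and 15.8 CPM in seizure-free Scn1a+/- libraries and 16.3, 16.1 and 17.0 CPM in wild type. The seizure libraries did not overlap with either group. The fold was 1.90 against wild type (log2 0.93 ± 0.11, edgeR adjusted p = 9.79e-08) and 1.90 against seizure-free Scn1a+/- (log2 0.92 ± 0.13, edgeR adjusted p = 3.69e-06). Htr1a, the inhibitory receptor of pyramidal and granule cells and the autoreceptor of serotonin neurons, had 33.7, 21.5 and 35.9 CPM in the seizure libraries, 46.8 and 43.6 CPM in seizure-free Scn1a+/- libraries and 47.5, 46.7 and 47.7 CPM in wild type. Again the ranges did not overlap, and the seizure library at 21.5 CPM was the lowest of the whole series. Htr1a stood at 0.644 of the wild-type level (log2 -0.64 ± 0.11, edgeR adjusted p = 3.28e-05) and at 0.674 of the seizure-free level (log2 -0.57 ± 0.12, edgeR adjusted p = 0.00102). Without that seizure library the log2 difference from wild type was -0.44 (edgeR adjusted p = 0.00012).

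Htr5a, a Gi-coupled serotonin receptor, had 17.9, 11.9 and 18.0 CPM in the seizure libraries, 11.4 and 11.9 CPM in seizure-free Scn1a+/- libraries and 16.2, 14.6 and 11.9 CPM in wild type. The seizure library at 11.9 CPM lay inside the seizure-free range and just under the lowest wild-type library, and the other 2 lay above all 5 libraries. It passed the test against the seizure-free Scn1a+/- libraries (log2 0.45 ± 0.15, edgeR adjusted p = 0.0329) and not against wild type (log2 0.16 ± 0.12, edgeR adjusted p = 0.366). The call against seizure-free Scn1a+/- was lost when seizure library 1, seizure library 3 or either seizure-free library was left out (edgeR adjusted p from 0.121 to 0.1745) and in a fit of these groups alone (0.283). Without seizure library 2, Htr5a passed against wild type (log2 0.33, edgeR adjusted p = 0.0328). Htr2a and Htr2c, the Gq-coupled receptors of cortical pyramidal cells and of the choroid plexus and many neurons, did not pass in either comparison. Htr2a had 5.08, 5.39 and 7.21 CPM in the seizure libraries, 7.62 and 5.11 CPM in seizure-free Scn1a+/- libraries and 6.19, 6.90 and 6.37 CPM in wild type (log2 against wild type -0.14 ± 0.16). Htr2c had 33.3, 39.0 and 36.3 CPM in the seizure libraries, 39.4 and 33.0 CPM in seizure-free Scn1a+/- libraries and 39.4, 37.1 and 35.1 CPM in wild type (log2 against wild type -0.04 ± 0.10). For both genes the 3 groups overlapped.

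Adra2c encodes a Gi-coupled alpha-2 receptor that also acts as an autoreceptor on noradrenaline terminals. It had 71.4, 77.5 and 78.5 CPM in the seizure libraries, 37.8 and 39.3 CPM in seizure-free Scn1a+/- libraries and 37.3, 39.7 and 36.0 CPM in wild type. All seizure libraries lay far above all others, and the 3 varied little, with a mean of 75.8 ± 3.86 CPM against 37.7 ± 1.91 CPM in wild type (SD, n = 3 each). The fold was 2.01 against wild type (log2 1.01 ± 0.08, edgeR adjusted p = 8.19e-12) and 1.96 against seizure-free Scn1a+/- (log2 0.97 ± 0.09, edgeR adjusted p = 1.42e-09). Adra1d, a Gq-coupled alpha-1 receptor, had 39.2, 31.7 and 65.8 CPM in the seizure libraries, 42.9 and 40.4 CPM in seizure-free Scn1a+/- libraries and 61.7, 51.6 and 52.8 CPM in wild type. The seizure libraries spanned the ranges of both other groups, and neither comparison passed (log2 -0.28 ± 0.15 against wild type, edgeR adjusted p = 0.190). Without the seizure library at 65.8 CPM the log2 difference from wild type was -0.65 (edgeR adjusted p = 1.46e-05), and with no filter on low counts it was -0.28 and passed (0.0389).

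The muscarinic receptors Chrm1 and Chrm3 are the Gq-coupled receptors through which acetylcholine excites principal cells. Chrm3 had 30.2, 18.2 and 31.4 CPM in the seizure libraries, 39.8 and 29.8 CPM in seizure-free Scn1a+/- libraries and 42.4, 36.4 and 39.2 CPM in wild type. The seizure libraries lay below every wild-type library but overlapped with the seizure-free ones. Chrm3 was lower than in wild type (0.678 of its level, log2 -0.56 ± 0.13, edgeR adjusted p = 0.00129) and did not pass against seizure-free Scn1a+/- (log2 -0.37 ± 0.15, edgeR adjusted p = 0.0844). It did pass there in 4 of 9 alternatives, with no filter on low counts (edgeR adjusted p = 0.0151) and without seizure library 1 (0.0264), seizure library 3 (0.00841) or seizure-free library 2 (0.0315). Without the seizure library at 18.2 CPM the log2 difference from wild type was -0.35 (edgeR adjusted p = 0.0148), and in a fit of these 2 groups alone it did not pass (edgeR adjusted p = 0.0662).

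Chrm1, the most abundant of the 10, had 209, 162 and 269 CPM in the seizure libraries, 224 and 221 CPM in seizure-free Scn1a+/- libraries and 264, 251 and 249 CPM in wild type. The spread in the seizure group, ± 53.9 CPM, covered both other groups, and neither comparison passed (log2 -0.25 ± 0.10 against wild type, edgeR adjusted p = 0.0547). As for Adra1d, leaving out the third seizure library, here the one at 269 CPM, brought Chrm1 under the threshold against wild type (log2 -0.47, edgeR adjusted p = 2.11e-06) and against seizure-free Scn1a+/- (-0.28, 0.00968). With no filter on low counts Chrm1 also passed against wild type (log2 -0.25, edgeR adjusted p = 0.0111).

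Both comparisons use the same 3 seizure libraries. Against seizure-free Scn1a+/-, 4 receptors were higher (Drd1, Htr4, Htr5a and Adra2c) and 1 was lower (Htr1a), where 15.7% of all genes tested passed, 8.72% higher and 7% lower. The median over the 10 receptors was 0.07 and that over all genes 0.01. In a fit restricted to these 2 groups 3 receptors passed, and Htr1a did not (edgeR adjusted p = 0.0974), nor did Htr5a.

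**Figure D3:**
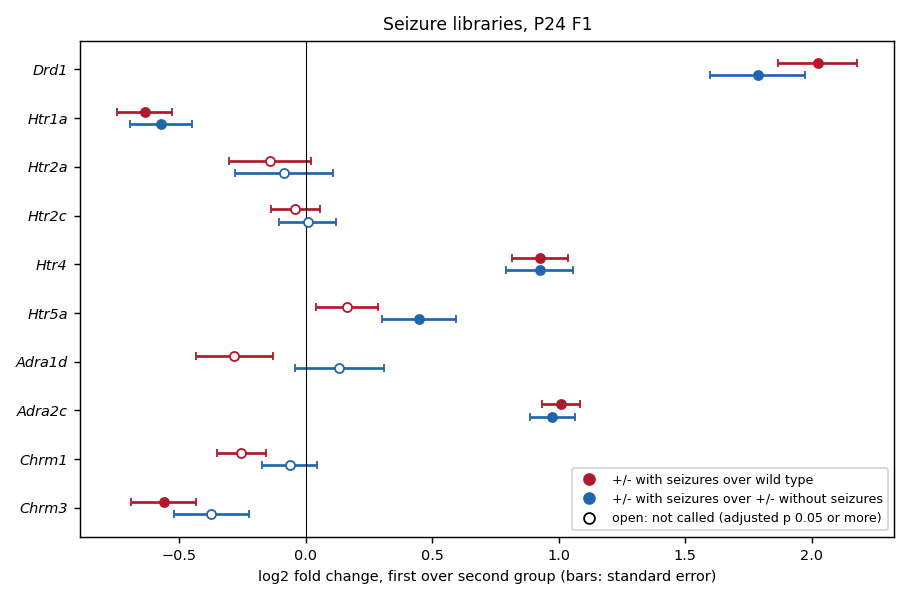
Log2 fold change (horizontal axis) of each receptor in the seizure libraries over P24 F1 wild type (red) and over seizure-free P24 F1 Scn1a+/- libraries (blue), with standard errors, and open symbols for values that did not pass. Drd1 lies farthest right, at 2.02 and 1.79, and Htr1a lies on the left in both, at -0.64 and -0.57.

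Drd1 is also abundant in the striatum, so 13 striatal markers were read beside it. Of the 12 tested, 2 were higher in the seizure libraries than in wild type, Ppp1r1b (DARPP-32, a target of Drd1 signalling) by a log2 of 0.33 and Serpina9, and 1 was lower. Beside them, 12.4% of all genes tested were higher and 10.1% lower. Serpina9 had 38 to 53 counts in the seizure libraries, 2 in each seizure-free Scn1a+/- library and 0 to 5 in wild type. The defining striatal genes Drd2 and Adora2a had log2 fold changes of -0.03 ± 0.27 and -0.06 ± 0.23, with Drd2 at 1.90 ± 0.417 CPM in the seizure libraries and 1.93 ± 0.490 CPM in wild type (SD, n = 3 each). The summed level of the list was 181 to 210.4 CPM in the seizure libraries, 178 to 179.8 CPM in seizure-free Scn1a+/- libraries and 191 to 198 CPM in wild type.

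**Figure D4:**
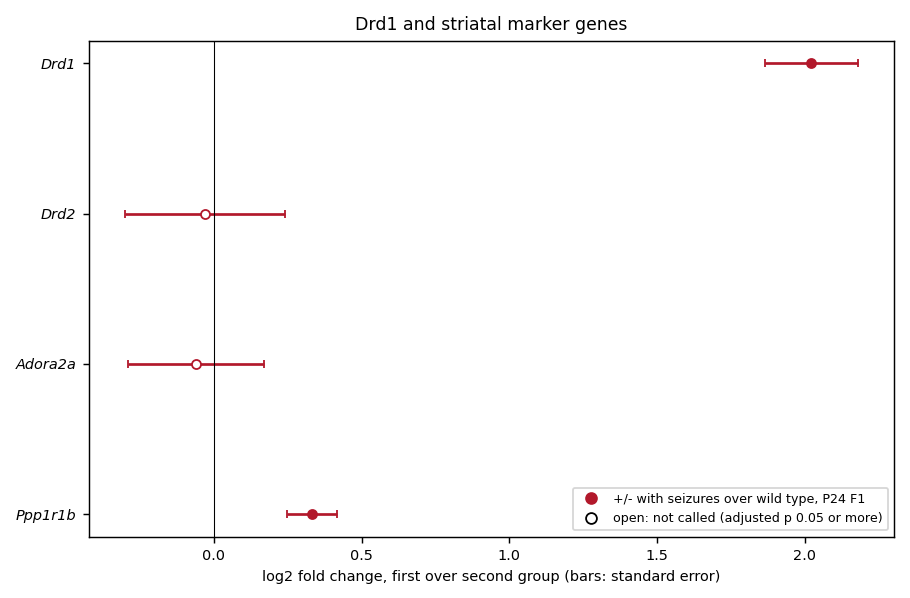
Log2 fold change (horizontal axis, with standard errors) of Drd1 and of the striatal markers Drd2, Adora2a and Ppp1r1b, in the seizure libraries over P24 F1 wild type, with open symbols for values that did not pass. Drd1 lies at 2.02 while Drd2 and Adora2a lie at -0.03 and -0.06 and Ppp1r1b at 0.33.

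Htr1a and Chrm3, which were lower, and Htr4, which was higher, are all made by principal cells. Drd1, also higher, is found on dentate granule cells. The markers of these principal cells differed unevenly. Of 11 dentate granule cell markers 8 were lower in the seizure libraries than in wild type and 1 was higher (median log2 -0.44, with Tdo2 at -2.79, Dsp at -1.45 and Calb1 at -0.51), with summed levels of 669.9 to 748 CPM in the seizure libraries, 947 to 1003 CPM in seizure-free Scn1a+/- libraries and 905 to 959 CPM in wild type. The higher marker was C1ql2, at 67.5 ± 22.2 CPM in the seizure libraries and 43.7 ± 4.37 CPM in wild type (SD, n = 3 each). The granule cell factor Prox1 was at 113 ± 5.26 CPM in the seizure libraries and 104 ± 7.43 CPM in wild type (n = 3 each), and did not pass. Of 7 CA1 markers 3 were lower (Fibcd1, Nov and Wfs1), 0 higher and 4 did not pass (Mpped1, Gpr161, Ndst4 and Spink8, log2 from -0.19 to 0.08), with sums of 525 to 690.3 CPM in the seizure libraries, 623 to 728 CPM in seizure-free Scn1a+/- libraries and 702 to 802 CPM in wild type. Against seizure-free Scn1a+/-, Fibcd1 was also lower (log2 -0.77, edgeR adjusted p = 7.16e-05). Nov (log2 -0.48, edgeR adjusted p = 0.0751) and Wfs1 (log2 0.07, edgeR adjusted p = 0.845) did not pass there. Of 12 CA2 and CA3 markers 4 were higher and 1 lower, with overlapping sums of 613 to 654 CPM in the seizure libraries and 598 to 627 CPM in wild type. Of 14 interneuron markers 4 were higher and 1 lower, of 13 activity-induced early genes 9 were higher and 0 lower, and of 8 oligodendrocyte markers 0 were higher and 7 lower. Summed astrocyte markers were above wild type without overlap (7971 to 9113 CPM in the seizure libraries and 6322 to 6874 CPM in wild type, with 4 of 8 higher and 3 lower). Summed neocortical markers were below wild type without overlap (259.8 to 273 CPM in the seizure libraries and 302 to 317 CPM in wild type, with 5 of 11 lower). So were thalamic and habenular markers (154 to 165 CPM in the seizure libraries and 188 to 209 CPM in wild type, with 4 of 11 lower and 1 higher). Leptomeningeal markers were also below (98.3 to 119.9 CPM in the seizure libraries and 135 to 146 CPM in wild type, with 2 of 6 lower and 1 higher). Seizure-free Scn1a+/- libraries had sums of 7163 to 7380 CPM for astrocyte and 299 to 319 CPM for neocortical markers. For thalamic and habenular markers they had 176 to 183 CPM, and for leptomeningeal markers 118 to 124 CPM. Except for the neocortical list, these sums also lay apart from wild type, on the same side as the seizure libraries. The leptomeningeal sums overlapped with those of the seizure libraries. Of 8 microglia markers 2 and of 6 endothelial markers 2 were higher, with overlapping sums. The choroid plexus, a rich source of Htr2c, had summed markers of 681 to 1352 CPM in the seizure libraries, 703 to 799.9 CPM in seizure-free Scn1a+/- libraries and 986 to 1077 CPM in wild type, and of its 17 markers Prlr was higher and Enpp2 lower. Over all genes tested, 12.4% were higher and 10.1% lower in this comparison. The part of these cell types in the receptor differences was not tested.

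The 23 other receptor genes of the same families were mostly low or did not pass. Of the 19 tested, 2 were higher and 2 lower in the seizure libraries than in wild type, with a median log2 of -0.03. Of all genes tested, 12.4% were higher and 10.1% lower. Drd4, a Gi-coupled dopamine receptor, had 21 to 92 counts in the seizure libraries, 1 to 3 in seizure-free Scn1a+/- libraries and 4 to 8 in wild type (log2 against wild type 3.64 ± 0.51, edgeR adjusted p = 1.77e-06). Adra1a, a Gq-coupled alpha-1 receptor, was higher by a log2 of 0.64 ± 0.15 against wild type and 0.84 ± 0.18 against seizure-free Scn1a+/- (edgeR adjusted p = 0.00178 and 0.00127). Htr1b, a Gi-coupled terminal receptor, was lower by a log2 of -1.09 in both, at 0.975 ± 0.0546 CPM in the seizure libraries and 2.09 ± 0.255 CPM in wild type. The Gi-coupled Chrm4 was lower than in wild type (log2 -0.57 ± 0.12, edgeR adjusted p = 0.000814).

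Of 19 genes for synthesis, transport and breakdown of the transmitters, 15 were tested. The list's median log2 was 0.26 against wild type and -0.02 against seizure-free Scn1a+/-. In both comparisons 4 were higher in the seizure libraries, among them the vesicular monoamine transporter Slc18a2 (log2 1.00 and 0.92), the plasma membrane monoamine transporter Slc29a4 (0.55 and 0.55) and the acetylcholinesterase Ache (0.37 and 0.69). The monoamine oxidase Maob was lower in both, by log2 values of -0.42 and -0.52. Of all genes tested, 12.4% were higher and 10.1% lower against wild type, and 8.72% and 7% against seizure-free Scn1a+/-.

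The 36 G protein and second messenger genes were all tested, and 7 were higher and 5 lower in the seizure libraries than in wild type (median log2 -0.07), beside 12.4% higher and 10.1% lower of all genes. The largest rises of the list were in Rgs4 and Rgs2, which shorten G protein signals, with log2 values of 1.62 ± 0.09 and 1.60 ± 0.10. Adcy5, Arrb1, Gnaz, Pde4b and Ppp1r1b rose by log2 values of 0.22 to 0.33. Adcy1, the calcium-activated adenylyl cyclase, stood at 1275 ± 81.8 CPM in the seizure libraries and 2422 ± 114 CPM in wild type (log2 -0.93 ± 0.06), and Adcy8, Adrbk1, Pde1b and Prkcb fell by log2 values of -0.18 to -0.42. Against seizure-free Scn1a+/-, 6 were higher (Rgs4, Rgs2, Ppp1r1b, Pde4b, Gnaz and Arrb1) and 4 lower (Adcy1, Pde1b, Prkcb and Adcy8). There, 8.72% of all genes were higher and 7% lower.

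For the 4 receptors with the smallest p against wild type, the genes most like them over the 25 libraries were looked up by Pearson's r of log2 CPM, as a description. The points share the seizure libraries, which stand apart, so r is also given over the other 22. Drd1 was most like Parp3 (r = 0.947, and 0.773 without the seizure group), the enkephalin precursor Penk (0.945 and 0.655) and Gadd45b (0.941 and 0.691). Adra2c was most like Trnp1 (0.977 and 0.837), Rasl10a (0.970 and 0.731) and Rimbp2 (0.968 and 0.736). Htr4 was most like Plekha2 (0.972 and 0.933), Bhlhe41 (0.968 and 0.924) and Sh2d5 (0.965 and 0.907), and Htr1a like Chn1 (0.931 and 0.924), Slc17a5 (0.931 and 0.905) and the granule cell marker Dsp (0.927 and 0.911). For Htr4 and Htr1a, r thus changed little when the seizure libraries were left out. Both genes were higher at P24 than at P14 in both strains, so r over the 22 libraries also includes that age difference.

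The genotype comparisons ask about loss of 1 Scn1a copy without seizures. None of the 10 receptors passed in any of the 4 comparisons, and nor did any of the 15912 genes (0%, edgeR). The disrupted gene Scn1a thus did not pass either. In P24 F1 it had 92.9 and 115 CPM in seizure-free Scn1a+/- libraries and 124 to 129.7 CPM in wild type, without overlap. Without the seizure group in the fit, 200 genes passed in P24 F1. A gene that did not pass is therefore not shown to be unchanged. At an unadjusted p under 0.05 edgeR gave 889 genes in P24 F1, 471 in P24 129S6 as labelled, 724 in P14 F1 and 391 in P14 129S6, and DESeq2 called 0 in each. Among the 10 receptors, Adra1d and Htr5a had an unadjusted p under 0.05 in 1 of the 4 comparisons each. A threshold of 0.05 lets through about this share of tests where nothing differs.

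Adra1d had 42.9 and 40.4 CPM in the seizure-free P24 F1 Scn1a+/- libraries and 61.7, 51.6 and 52.8 CPM in wild type. The groups did not overlap (log2 -0.41 ± 0.18, edgeR adjusted p = 0.833). In a fit without the seizure libraries this difference passed (edgeR adjusted p = 0.0318). Htr5a had 17.2, 17.2 and 16.1 CPM in the P24 129S6 libraries labelled Scn1a+/- and 11.8, 13.6 and 13.4 CPM in those labelled wild type, also without overlap (log2 0.38 ± 0.13, unadjusted p = 0.00728, edgeR adjusted p = 1). Chrm1 also did not overlap at P24, with 224 and 221 CPM in seizure-free Scn1a+/- libraries and 264, 251 and 249 CPM in wild type in F1 (log2 -0.19 ± 0.11), and 249 to 259.6 CPM in libraries labelled Scn1a+/- and 222 to 234 CPM in those labelled wild type in 129S6 (log2 0.14 ± 0.10). In P24 F1 Htr5a had 11.4 and 11.9 CPM in seizure-free Scn1a+/- libraries and 16.2, 14.6 and 11.9 CPM in wild type. The genotype difference of Htr5a in F1 minus that in 129S6 by labels was -0.66 ± 0.20 on the log2 scale (edgeR adjusted p = 0.764), a contrast added after the data were seen that passed for 0.00628% of genes and for no receptor at P24, and for 0% at P14 (495 genes at an unadjusted p under 0.05). With the P24 129S6 genotype taken from the file names, the same contrast was 0.09 ± 0.20 for Htr5a (edgeR adjusted p = 1). For Chrm1 the contrast was -0.33 ± 0.15 by labels (edgeR adjusted p = 0.764) and -0.05 ± 0.15 by file names, and passed in neither. By file names, Chrm1 at P24 thus had lower values in Scn1a+/- than in wild-type libraries in both strains.

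At P14 the log2 genotype differences of the 10 receptors ran from -0.06 (Adra2c) to 0.24 (Htr2a) in F1 and from -0.04 (Htr5a) to 0.15 (Htr2c) in 129S6. Drd1, for example, had 3.80, 3.63 and 3.60 CPM in P14 F1 Scn1a+/- libraries and 3.66, 2.84 and 3.33 CPM in wild type, with overlapping ranges (log2 0.18 ± 0.23).

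Age was compared within each strain over both genotypes, leaving out the seizure libraries. In F1, 5 receptors were higher at P24 (Drd1, Htr1a, Htr2a, Htr4 and Adra1d) and 2 were lower (Htr2c and Chrm3), where 38.4% of all genes passed, 19% higher and 19.4% lower. In 129S6, 4 were higher (Htr1a, Htr4, Adra1d and Chrm1) and 1 was lower (Htr2c), where 34.3% passed, 17.3% higher and 17.1% lower. The median log2 change of the 10 was 0.21 in F1 and 0.17 in 129S6, with medians over all genes of 0.00 and 0.01.

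Htr4 rose with age in both strains. In F1 it ran from 15.8 to 17.3 CPM at P24 (median 16.3, n = 5) and from 9.90 to 12.4 CPM at P14 (median 10.6, n = 6), and in 129S6 from 15.0 to 18.9 CPM at P24 (median 17.2, n = 6) and from 9.59 to 11.5 CPM at P14 (median 10.9, n = 5). No P24 library overlapped with a P14 library of its strain (log2 0.60 ± 0.10 in F1 and 0.65 ± 0.10 in 129S6, edgeR adjusted p = 7.86e-06 and 2.12e-06). Htr1a ran from 43.6 to 47.7 CPM at P24 and from 32.6 to 38.7 CPM at P14 in F1, and from 50.6 to 59.7 CPM at P24 and from 33.8 to 40.1 CPM at P14 in 129S6. Again the ages did not overlap in either strain (log2 0.34 ± 0.08 and 0.58 ± 0.08). The dentate markers rose as well, 8 of 11 in F1 (1 fell) and 9 of 11 in 129S6 (2 fell). Of the 7 CA1 markers 1 rose and 1 fell in F1 and 3 rose and 1 fell in 129S6, with sums of 623 to 802 CPM at P24 and 742 to 831 CPM at P14 in F1, and 695 to 806 CPM at P24 and 659 to 823 CPM at P14 in 129S6. Of the 12 CA2 and CA3 markers 4 rose and 4 fell in F1 and 5 rose and 3 fell in 129S6. Beside these lists, 19% of all genes tested rose and 19.4% fell in F1, and 17.3% rose and 17.1% fell in 129S6. The part of these cells in these changes was not tested.

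Htr2c fell with age in both strains. It ran from 33.0 to 39.4 CPM at P24 and from 37.8 to 52.8 CPM at P14 in F1, and from 33.3 to 45.3 CPM at P24 and from 41.4 to 52.0 CPM at P14 in 129S6. The ages overlapped in both strains (log2 -0.31 ± 0.08 and -0.22 ± 0.08, edgeR adjusted p = 0.00157 and 0.0202). The call in 129S6 was lost when 1 of 3 libraries was left out, the third P24 labelled Scn1a+/- (edgeR adjusted p = 0.0675), the first P14 Scn1a+/- (0.0583) or the second P14 wild-type library (0.0870). Of the 17 choroid plexus markers 6 were higher and 2 lower at P24 in F1 and 4 higher and 2 lower in 129S6, beside 19% higher and 19.4% lower of all genes in F1 and 17.3% and 17.1% in 129S6. Their sums overlapped between ages, at 703 to 1077 CPM at P24 and 602 to 997 CPM at P14 in F1, and 1054 to 1635 CPM at P24 and 1011 to 1579 CPM at P14 in 129S6, and their part in the change of Htr2c was not tested.

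Drd1 ran from 4.72 to 6.44 CPM at P24 and from 2.84 to 3.80 CPM at P14 in F1, without overlap (log2 0.71 ± 0.15, edgeR adjusted p = 0.000323). In 129S6 it ran from 4.96 to 5.92 CPM at P24 and from 3.73 to 7.16 CPM at P14, and the ages overlapped (log2 0.02 ± 0.14). The difference between the strains in the age change of Drd1 was 0.69 ± 0.21 on the log2 scale and did not pass (unadjusted p = 0.00229, edgeR adjusted p = 0.504). Htr2a spanned 5.11 to 7.62 CPM at P24 and 3.41 to 4.98 CPM at P14 in F1, without overlap. It rose in F1 (log2 0.60 ± 0.14) and had a log2 change of 0.30 ± 0.13 in 129S6 (edgeR adjusted p = 0.0757). The age change differed between strains for none of the 10 receptors and for 0.00628% of all genes, 0.00628% in the higher and 0% in the lower direction (edgeR). DESeq2 called 2 genes there, and at an unadjusted p under 0.05 there were 1295.

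The remaining age calls were smaller. Adra1d rose by a log2 of 0.31 ± 0.12 in F1 (edgeR adjusted p = 0.0420) and 0.46 ± 0.12 in 129S6 (0.00321), with overlapping ages in both, and the F1 call was lost with DESeq2 (adjusted p = 0.0988) and when 1 of 5 libraries was left out. Chrm3 fell in F1 (log2 -0.26 ± 0.10, edgeR adjusted p = 0.0383) and had 0.12 ± 0.10 in 129S6. The F1 call of Chrm3 was lost when 1 of 8 libraries was left out, and was smallest without the second seizure-free P24 Scn1a+/- library (log2 -0.15, edgeR adjusted p = 0.311). Chrm1 rose in 129S6 (log2 0.21 ± 0.07, edgeR adjusted p = 0.0219) and had 0.11 ± 0.07 in F1. The 129S6 call was lost when 1 of 5 libraries was left out (edgeR adjusted p from 0.0502 to 0.0738), and in F1 Chrm1 passed with only the compared groups fitted (0.0237) and without the seizure group (0.0190). Adra2c and Htr5a did not pass in either strain, with log2 changes of 0.10 and 0.13 for Adra2c and -0.22 and -0.15 for Htr5a. Htr5a passed in F1 in 3 of 16 alternatives, and Adra2c in 129S6 in 1 of 16.

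**Figure D5:**
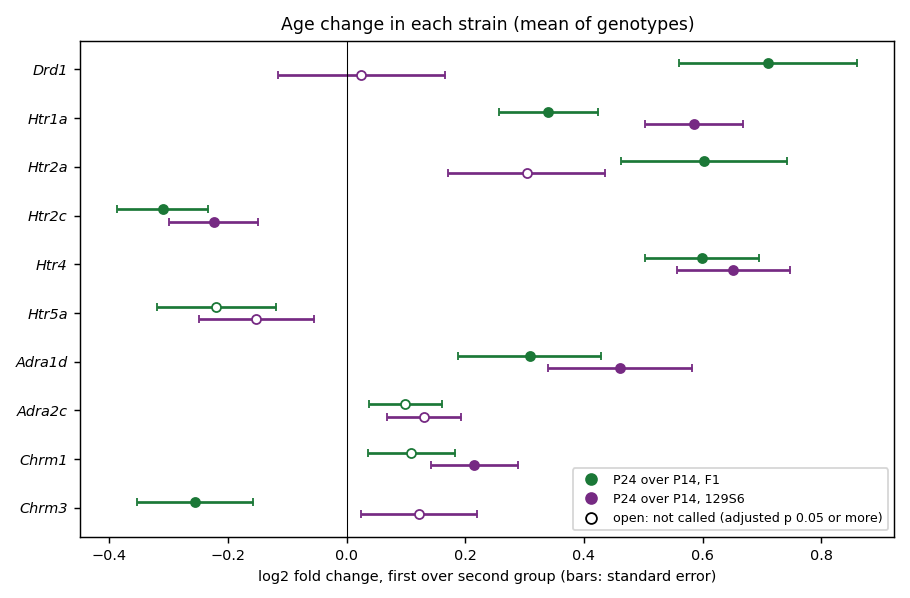
Log2 fold change (horizontal axis, with standard errors) of each receptor between P24 and P14 in F1 (green) and in 129S6 (purple), over both genotypes and without the seizure libraries, with open symbols for values that did not pass. Htr4 lies at 0.60 and 0.65, Htr2c at -0.31 and -0.22, and Drd1 at 0.71 and 0.02.

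Of the 19 other receptors tested, 2 rose and 4 fell in F1, beside 19% and 19.4% of all genes, and 3 rose and 3 fell in 129S6, beside 17.3% and 17.1%, with medians of -0.07 and 0.03. Drd5, the second Gs-coupled dopamine receptor, rose by a log2 of 0.36 in F1 and 0.72 in 129S6, and the serotonin-gated channel Htr3a by 0.81 and 0.73, and Htr6, another Gs-coupled serotonin receptor, by 0.57 in 129S6. Adra2a fell by log2 values of -0.50 and -0.40, Chrm5 by -0.68 and -0.60, Adra1b by -0.45 and -0.53, and Htr5b by -0.51 in F1. Of the 15 transmitter genes 1 rose and 6 fell in F1 and 0 rose and 5 fell in 129S6, among them Slc29a4 (log2 -0.47 and -0.52), Slc22a3 (-1.23 and -1.50) and the serotonin-synthesizing Tph2 (-0.87 and -1.09), with Ache (-0.32) in F1 and Slc5a7 (-0.81) in 129S6. Maob rose in F1 (0.30). Of the 36 G protein genes 10 rose and 10 fell in F1 and 10 rose and 8 fell in 129S6. Adcy1 (0.64 and 0.55), Pde1b (0.74 and 0.59), Ppp1r1b (0.70 and 0.58) and Adrbk1 (0.39 and 0.33) rose, and Gnal (-0.48 and -0.44), Gnai3 (-0.36 and -0.28), Gnao1 (-0.25 and -0.24), Rgs4 in F1 (-0.45) and Rgs9 in 129S6 (-0.34) fell.

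Strain differences were few. At P14 Drd1 was lower in F1, with 2.84 to 3.80 CPM (median 3.62, n = 6), than in 129S6, with 3.73 to 7.16 CPM (median 4.85, n = 5). Of the 6 F1 libraries 5 lay below the 129S6 range and 1 inside it (log2 -0.64 ± 0.15, edgeR adjusted p = 0.0108). It was the only receptor of the 10 to pass, where 3.7% of all genes did, 2.04% higher and 1.66% lower in F1. The call was lost without the P14 129S6 wild-type library at 7.16 CPM (log2 -0.36, edgeR adjusted p = 0.339). No striatal marker of the 12 tested passed there, and their summed level was 168 to 187 CPM in the F1 libraries and 171 to 177 CPM in the 129S6 libraries. Adra2c had 33.8 to 37.4 CPM in F1 and 29.7 to 33.4 CPM in 129S6 at P14, without overlap, and did not pass (log2 0.21 ± 0.06, edgeR adjusted p = 0.0554).

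At P24 Htr1a was lower in F1, with 43.6 to 47.7 CPM (median 46.8, n = 5), than in 129S6, with 50.6 to 59.7 CPM (median 55.7, n = 6). The strains did not overlap (log2 -0.27 ± 0.08, edgeR adjusted p = 0.0383). It was the only one of the 10 to pass, where 6.33% of all genes did, 3.46% higher and 2.87% lower in F1, and leaving out any 1 of 9 of the 11 libraries raised the adjusted p to between 0.0575 and 0.261. At P14, Htr1a had 32.6 to 38.7 CPM in F1 and 33.8 to 40.1 CPM in 129S6 and the strains overlapped. Of the related genes, Htr3a was higher in F1 at both ages (log2 0.98 ± 0.16 at P14 and 1.06 ± 0.14 at P24, edgeR adjusted p = 0.000138 and 1.81e-06). The butyrylcholinesterase Bche was lower in F1 at both (-0.42 and -0.41), and at P24 the choline transporter Slc5a7 (0.99) and Rgs9 (0.55) were higher and Plcb1 (-0.25) lower.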

How the data were processed

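Hippocampal RNA was prepared with TRIzol and sequenced after the TruSeq RNA Library Preparation Kit v2, per the labels' protocols. CASAVA, TopHat2 2.1.0, HTSeq 0.6.1p1 and mm10 are named in the submitters' processing notes. For the annotation and the strand setting, these sources give nothing. The deposited files hold raw read counts per gene symbol, not normalized by the authors. The files held 0 lines that name no gene. From the counts, edgeR 4.0.16 (limma 3.58.1, R 4.3.3) fitted 1 quasi-likelihood model of 9 groups over 25 libraries, with TMM factors and filterByExpr (minimum count 10), on 15912 genes. A call is a Benjamini-Hochberg adjusted p under 0.05. CPM is the count scaled to the TMM-adjusted library size, and the error of a log2 fold change is its standard error. The common biological coefficient of variation was 7.57%. The fit was checked on simulated data with the same spread in every group. That check does not cover the wider spread among the seizure libraries. Groups follow the titles. Library totals ran from 7436442 to 25520050 counts. Receptors and lists were chosen with earlier results of these data known. Named list genes are those that passed in the seizure comparisons and up to 4 per direction, by p, elsewhere, and some of them are not reported here. Alternatives were RLE factors, DESeq2 1.42.0, no filter on low counts, fits of the compared groups, fits without the seizure group, genotype by file name, CPM by total count and leaving out each library. Exonic lengths are from GENCODE vM39 and promoters and coordinates from RefSeq GRCm38.p6.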

Additional observations from a re-analysis of the deposited data

How the results depend on the processing

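Of the receptor differences that passed, 0 changed sign under the alternatives run. Taking P24 129S6 genotype from the file names turns the sign of that comparison by construction. Leaving out 1 library at a time gave 5 to 7 receptors called for seizures against wild type, 4 to 6 against seizure-free Scn1a+/-, 5 to 7 for age in F1, 3 to 7 for age in 129S6, 0 to 2 for strain at P14, 0 to 1 for strain at P24 and 0 for genotype. With only the compared groups fitted, 3 receptors passed against seizure-free Scn1a+/- and 2 each for strain at P14 and P24. Without the seizure group, 1 passed for genotype in P24 F1 (Adra1d) and 2 each for strain at P14 and P24, and DESeq2 called 2 for strain at P14, in each strain case with Adra2c added. Over all genes, fitting only the compared groups gave 1615 calls against wild type (3579 in the full model) and 633 against seizure-free Scn1a+/- (2502), where leaving out seizure-free library 2 gave 1519. It gave 1051 for strain at P14 (588) and 1950 at P24 (1008). Without the seizure group these were 991 and 2104, the P24 F1 genotype count was 200 (0), and the age-by-strain count was 42 (1). Leaving out 1 library gave as few as 380 for strain at P14 and 423 at P24. With no filter on low counts, genotype gave 9 in P24 F1, 3 in P24 129S6 and 4 in P14 129S6, and age by strain 6. The causes were not tested. No paired analysis was possible because the replicate numbers run through the series and pair no samples. Drd1 and Htr2a had the fewest counts of the receptors (lowest library 27 and 37), which limits their precision at P14.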
